A study of Homo sapiens with 6 samples.

Results

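The genes described here encode the machinery of S phase, the stretch of the cell cycle in which a cell copies its DNA. They are 43 genes of the 60591 named in the count table, taken by symbol from a list of replication genes: helicase subunits and their loading factors, helicase activators, the sliding clamp and its loader, DNA polymerases and primase, factors that join and coat new strands, enzymes of nucleotide synthesis, and 4 genes of DNA methylation upkeep, histone mRNA and the E2F factors. All 43 were found, and all 43 passed the filter on low counts, which left 20676 genes for testing.

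The study asked how breast cancer cells respond to fluid shear in a 3-dimensional model of the moving fluid in loaded bone. All libraries came from MDA-MB-231 cells labelled as a bone-homing variant; MDA-MB-231 is an established breast cancer line that lacks the oestrogen and progesterone receptors. The groups were static (no flow), low flow (1 mL/min) and high flow (15 mL/min), with 2 libraries each and no agent or allele besides the flow. The labels call the replicates by number and do not say whether each was a culture of its own, how long flow lasted or how the variant was derived. The p-values therefore measure the spread between libraries, which may be technical.

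Poly(A) RNA was sequenced to 17822642 and 23544307 counts in static, 45174328 and 47067620 in low flow and 43965176 and 53279537 in high flow. Both static libraries thus held fewer counts than any flow library. Depth therefore goes with flow in both comparisons against static, and its part in the results was not tested. The column names place static and low flow in 1 lane and high flow in another, with differently named alignment files, so for every comparison that involves high flow the lane cannot be told apart from the flow. Mitochondrial transcripts took 6.61% of counts in low flow replicate 2 and 10.4% in static replicate 2, with the other libraries between, and the part of this in the results was not tested. The labels give the cell type as endothelial cancer cells. Of 8 endothelial markers, PECAM1 (8.33 to 14.1 CPM, counts scaled to a common library size) and TIE1 (29.9 to 44.2 CPM) reached 1 CPM in every library, and the defining markers CDH5 and CLDN5 stayed at or below 0.0869 CPM. The summed endothelial markers were 41.3 to 50.7 CPM in static, 51.9 to 59.2 in low flow and 54.6 to 57.3 in high flow. VIM was at 3618 to 5031 CPM and CD44 at 923 to 1053, while PGR was at 0 and ESR1 at most 0.391. For these genes that is the pattern known for MDA-MB-231. Of the other markers listed for the line, KRT8 was at 126.6 to 190 CPM, KRT18 at 163.6 to 237 and KRT19 at 27.5 to 70.4. ERBB2 was at 49.6 to 68.5 CPM, EPCAM at 2.69 to 4.26 and CDH1 at most 0.0563. Of 4 osteoblast and 3 haematopoietic markers, BGLAP (1.05 to 2.37 CPM) and CD68 (258.3 to 338.8 CPM) alone reached 1 CPM in every library. PTPRC was at most 0.169 CPM.

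DNA replication starts at origins that are licensed in G1: the origin recognition complex, with CDC6 and CDT1, loads the ring-shaped MCM helicase onto DNA. At the start of S phase the loaded helicase is activated by CDC45 and the GINS complex, primase and the polymerases start and extend new strands, and the clamp PCNA holds the polymerases to the template. Many of these genes are transcribed together at the G1/S boundary by E2F factors, which the retinoblastoma protein family holds back in resting cells, and their summed RNA is therefore often read as a sign of proliferation.

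The E2F motif is the sequence these promoters are known for, and matches to it were searched first. RefSeq (GRCh38.p14) gave a promoter window, from 250 bases before to 50 bases after the gene start, for 37 of the 43 genes, all but MCM4, MCM5, GINS4, POLD3, RPA2 and RPA3. The motifs searched were TTTCCCGC, TTTGGCGC, TTTCGCGC and TTTGCCGC on both strands, and matches may overlap one another. At least 1 match was found in 20 of 37 windows (54.05%), against 908 of 27305 promoters in all (3.33%) and 5.21% of the promoters of tested genes. Of the 27 matches, 21 began within 100 bases of the gene start. MCM6 held 4 matches, and MCM2, MCM3, MCM7 and E2F1 held more than 1. The following stretches show such matches in genes of different roles, with the bases of the motif in capitals. Each is given 5′ to 3′ on the gene's own strand, and holds no base of an annotated exon.
MCM6 (helicase subunit, chr2:135876444-135876693, minus strand): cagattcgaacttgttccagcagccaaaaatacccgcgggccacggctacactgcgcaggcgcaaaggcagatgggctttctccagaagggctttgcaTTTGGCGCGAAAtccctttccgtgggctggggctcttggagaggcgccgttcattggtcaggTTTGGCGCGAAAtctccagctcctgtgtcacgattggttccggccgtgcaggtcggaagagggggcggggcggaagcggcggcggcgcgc
MCM3 (helicase subunit, chr6:52284882-52284992, minus strand): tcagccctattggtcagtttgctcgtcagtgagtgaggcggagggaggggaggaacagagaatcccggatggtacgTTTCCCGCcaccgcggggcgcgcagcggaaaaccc
POLA1 (polymerase alpha, chrX:24693668-24693917, plus strand): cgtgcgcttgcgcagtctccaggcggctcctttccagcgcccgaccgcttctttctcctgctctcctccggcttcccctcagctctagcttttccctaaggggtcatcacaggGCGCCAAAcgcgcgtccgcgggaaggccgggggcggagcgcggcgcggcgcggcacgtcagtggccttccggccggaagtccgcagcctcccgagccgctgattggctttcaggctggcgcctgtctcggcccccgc
E2F2 (E2F factor, chr1:23531234-23531483, minus strand): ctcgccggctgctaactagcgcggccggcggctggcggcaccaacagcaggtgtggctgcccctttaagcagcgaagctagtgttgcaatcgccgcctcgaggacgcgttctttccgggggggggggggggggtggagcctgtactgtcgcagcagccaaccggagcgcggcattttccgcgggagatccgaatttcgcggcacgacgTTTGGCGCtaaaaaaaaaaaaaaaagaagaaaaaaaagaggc

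In the MCM6 stretch each of the capital runs holds 2 overlapping matches, TTTGGCGC read forward and TTTCGCGC read on the other strand. POLA1 carries TTTGGCGC on the reverse strand, so it appears there as GCGCCAAA. MCM10 and RFC1, chosen for contrast after their values were seen, had none of the 4 motifs in their windows, and no bases of theirs are in capitals. Both are described below among the genes that fell at each flow rate.
MCM10 (helicase activation, chr10:13161308-13161553, plus strand): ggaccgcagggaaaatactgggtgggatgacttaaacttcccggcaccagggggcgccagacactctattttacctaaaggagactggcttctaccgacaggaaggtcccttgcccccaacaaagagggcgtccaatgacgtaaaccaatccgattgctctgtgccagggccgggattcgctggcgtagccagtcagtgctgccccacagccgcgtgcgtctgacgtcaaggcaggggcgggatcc
RFC1 (clamp loader, chr4:39366376-39366612, minus strand): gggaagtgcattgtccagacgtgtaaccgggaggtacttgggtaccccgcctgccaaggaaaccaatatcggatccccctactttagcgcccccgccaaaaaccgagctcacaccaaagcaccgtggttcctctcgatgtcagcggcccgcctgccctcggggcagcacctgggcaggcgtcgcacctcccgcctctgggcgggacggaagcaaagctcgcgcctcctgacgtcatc

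The promoters of 25 genes of G2 and mitosis looked different under the same search. An E2F motif was found in 8.0% of them, and the CHR element TTTGAA, known from mitotic promoters, in 68%, against 2.7% of the replication promoters (RRM1 alone) and 15.43% of all promoters. The CCAAT box, bound by the factor NF-Y, was in 56.76% of replication promoters, 76.0% of G2 and mitosis promoters and 35.7% of all. A match is a description of the letters in the window and not evidence of binding.

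**Figure D1:**
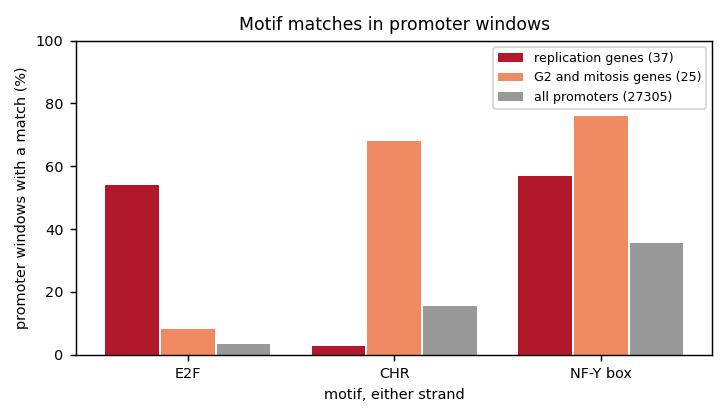
Share of promoter windows, in percent, that hold an E2F motif, a CHR element or a CCAAT box (labelled NF-Y box) on either strand, for 37 replication genes, 25 G2 and mitosis genes and all 27305 promoters. The E2F bar is highest for replication genes (54.05%) and the CHR bar for G2 and mitosis genes (68%).

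Under low flow 13 of the 43 replication genes fell relative to static, and 30 did not pass. The log2 fold change was negative in 42 of 43, with a median of -0.29 and a range of -0.61 to 0.09, beside a median of 0.01 over all genes tested. Adjusted p from edgeR's quasi-likelihood test, over all genes and with a threshold of 0.05, passed for 13 lower and 0 higher genes. Of all genes tested, 3.49% passed as lower and 3.25% as higher. The 13 were ORC6, MCM10, CDC45, GINS1, RFC1, RFC2, POLA2, PRIM1, POLD3, POLE2, TYMS, RRM2 and UHRF1. At an unadjusted p under 0.05 there were 34 lower and 0 higher, beside 2426 lower and 2427 higher of all 20676 genes. DESeq2 called 19 lower and 0 higher. Its share over all genes is not given here, and edgeR's shares are no measure for that count. In 38 of 43 both low flow libraries lay below both static libraries, against 26.3% of all genes. Each library bore on the calls, which did not hold in every fit with 1 library left out. Such a fit has a single library in a group. The median log2 fold change stayed between -0.22 and -0.39 over these 6 fits.

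Under high flow 13 genes again passed as lower and 0 as higher, beside 6.43% and 7.49% of all genes. These were ORC6, MCM10, PCNA, RFC1, RFC2, RFC3, RFC4, PRIM1, POLD3, POLE2, TYMS, RRM1 and SLBP. At an unadjusted p under 0.05 there were 25 lower and 0 higher, beside 2963 lower and 3111 higher of all 20676 genes. DESeq2 called 14 lower and 0 higher, again without its own share over all genes beside the count. The log2 fold change against static was negative in 36 of 43, with a median of -0.24 and a range of -0.60 to 0.18, beside 0.00 over all genes. Both high flow libraries lay below both static libraries in 32 of 43, against 29.4% of all genes. These calls, too, did not hold in every fit with a library left out, while the median log2 fold change stayed negative. Both comparisons use the same static libraries, so their likeness is no independent support.

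Summed over the 43 genes, the libraries held 3846 and 4015 CPM in static, 3413 and 2995 in low flow and 3293 and 3444 in high flow. All 4 flow libraries were below both static libraries, and low flow replicate 2 was the lowest. Within low flow, replicate 2 was below replicate 1 in 41 of 43 genes, with a median log2 difference of -0.20. The corresponding counts were 16 of 43 in static and 7 of 43 in high flow, where the median differences were 0.06 and 0.09. Fewer cells in S phase and less of these RNAs per cell cannot be told apart in bulk RNA.

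**Figure D2:**
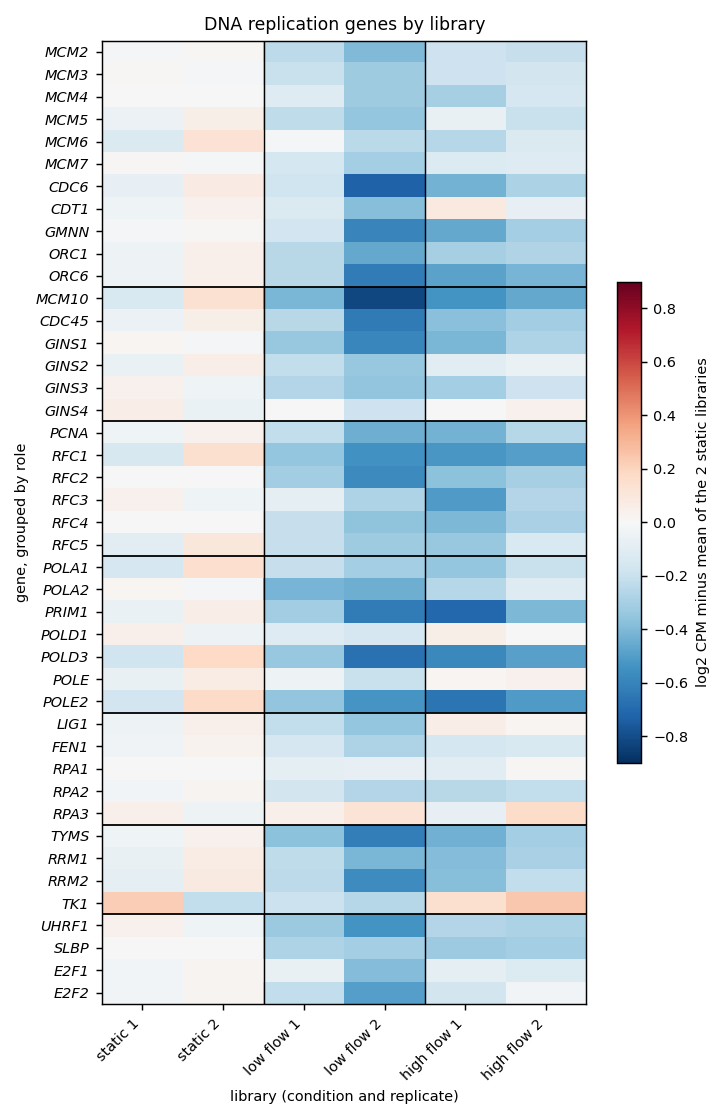
Log2 CPM of each replication gene (rows, grouped by role) in each of the 6 libraries (columns), minus the mean of the 2 static libraries, with blue for lower and red for higher. Most rows are blue in all 4 flow libraries and darkest in low flow replicate 2, and RPA3, GINS4, POLE and TK1 are among the rows that are not.

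**Figure D3:**
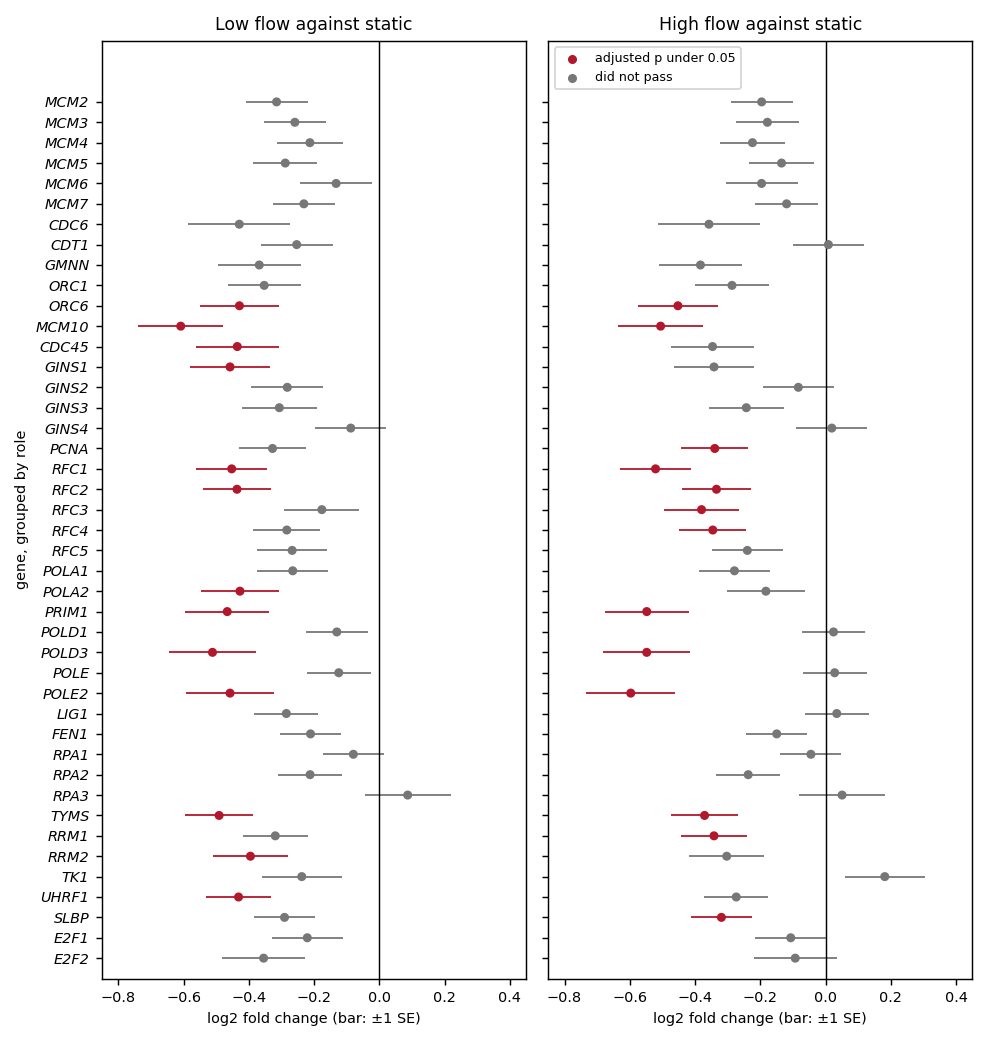
Log2 fold change against static of each replication gene under low flow (left) and high flow (right), with bars of 1 SE and red points for an adjusted p under 0.05. Nearly all points lie left of 0, and the 13 red points in each panel are spread over most roles but not over the strand-joining and RPA genes.

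Of the 11 genes that build or load the MCM helicase, 1 fell at each flow rate, and the median log2 fold change against static was -0.29 under low flow and -0.20 under high flow. Over all genes 3.49% were lower under low flow and 6.43% under high flow, the shares to set beside the count of each role. At an unadjusted p under 0.05, 10 of the 11 were lower under low flow and 5 under high flow. Of all 20676 genes, 2426 and 2963 were lower at that threshold. Both flow libraries lay below both static libraries in 10 and 9 of the 11, against 26.3% and 29.4% of all genes. With 11 genes a count of 1 past the adjusted threshold says little about this role. The gene that fell was ORC6, a subunit of the origin recognition complex (chromosome 16, 46689643 to 46698394, plus strand; GENCODE 29 on GRCh38, as for all positions below, counted from 1). ORC6 was at 37.1 and 39.3 CPM in static, 32.2 and 24.6 in low flow and 27.3 and 28.6 in high flow. All flow libraries were below both static libraries. It fell by 25.7% under low flow (log2 fold change -0.43, SE 0.12, adjusted p = 0.0428) and fell by 26.9% under high flow (-0.45, SE 0.12, adjusted p = 0.0208).

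MCM2 encodes a subunit of the helicase ring itself (chromosome 3, 127598223 to 127622436, plus strand), and an antisense gene with 57 counts in all covers 22.7% of its exon bases. Its RNA was at 179 and 181.2 CPM in static, 152.7 and 136.9 in low flow and 158.6 and 155.9 in high flow. The static pair stood clear of all flow libraries, but the log2 fold changes of -0.32 (SE 0.10, adjusted p = 0.0531) and -0.20 (SE 0.10, adjusted p = 0.178) did not pass. The other ring subunits gave log2 fold changes of -0.13 (MCM6) to -0.29 (MCM5) under low flow and -0.12 (MCM7) to -0.22 (MCM4) under high flow, and none of them passed. MCM6, whose promoter held the most E2F matches, was the ring subunit whose libraries overlapped in both comparisons: 67.2 and 80.07 CPM in static, 72.4 and 62.03 in low flow and 61.5 and 67.2 in high flow. Per kilobase of exon, and averaged over all libraries, the ring subunits ranged from 95.2 CPM per kb for MCM3, the highest of all 43 genes, and 64.05 for MCM7 through 32.8 for MCM2 and 31.8 for MCM4 to 16.6 for MCM6 and 12.3 for MCM5.

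CDC6 and CDT1 load the ring, and geminin (GMNN) blocks CDT1 from doing so again in S phase. CDC6 (chromosome 17, 40287633 to 40304657, plus strand) was at 106.8 and 117.9 CPM in static, 99.2 and 67.8 in low flow and 83.4 and 92.02 in high flow. Its low flow replicates lay farther apart than those of static or high flow, and neither log2 fold change passed (-0.43, SE 0.16, adjusted p = 0.132 for low flow; -0.36, adjusted p = 0.162 for high flow). CDT1 (chromosome 16, 88803213 to 88809258, plus strand) was at 47.1 and 49.9 CPM in static, 44.3 and 37.1 in low flow and 51.6 and 46.1 in high flow. The high flow pair straddled the static pair, with a log2 fold change of 0.01 (adjusted p = 0.969), against -0.25 (adjusted p = 0.171) for low flow. GMNN had log2 fold changes of -0.37 (adjusted p = 0.0882) and -0.38 (adjusted p = 0.0534), and ORC1, another origin recognition subunit, -0.35 (adjusted p = 0.0648) and -0.29 (adjusted p = 0.0947).

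Among the 6 genes that activate the helicase, MCM10, CDC45 and GINS1 fell under low flow and MCM10 fell under high flow, with medians of -0.37 and -0.29 over the 6. MCM10, which acts with the assembled helicase when origins fire, had the largest decrease of the 43 genes under low flow (chromosome 10, 13161554 to 13211104, plus strand). It was at 80.05 and 96.5 CPM in static, 66.2 and 49.7 in low flow and 60.7 and 63.8 in high flow. Every flow library was well below the lower static library. MCM10 fell by 34.4% under low flow (log2 fold change -0.61, SE 0.13, adjusted p = 0.0161) and fell by 29.6% under high flow (-0.51, SE 0.13, adjusted p = 0.0209).

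CDC45 travels with the helicase at the fork (chromosome 22, 19479459 to 19520612, plus strand). It was at 26.7 and 28.8 CPM in static, 23.3 and 17.8 in low flow and 21.3 and 22.3 in high flow. It fell by 26.1% under low flow (log2 fold change -0.44, SE 0.13, adjusted p = 0.0469), and high flow did not pass (-0.35, adjusted p = 0.0763). The GINS complex has 4 subunits, which are its partners there. GINS1 was at 22.1 and 21.6 CPM in static, 17.3 and 14.6 in low flow and 16.4 and 18.02 in high flow, and the groups of flow libraries did not overlap static. GINS1 fell by 27.2% under low flow (log2 fold change -0.46, SE 0.12, adjusted p = 0.0337), with -0.34 (adjusted p = 0.0713) under high flow. The other subunits did not pass at either rate: GINS3 had log2 fold changes of -0.31 and -0.24, GINS2 of -0.28 and -0.08, and GINS4 of -0.09 and 0.02.

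In the fit without offsets, the clamp and its loader were the role with the most genes lower under high flow, 5 of 6. Under low flow 2 of 6 were lower, and the median log2 fold changes were -0.34 under high flow and -0.31 under low flow. Whether the rates differ in this was not shown: none of the 6 passed between high and low flow. The rank under high flow did not hold with the offset for length and GC described below. PCNA, RFC3 and RFC4 then lost the call, and RFC1 and RFC2 kept it. RFC1 is the large subunit of replication factor C, which opens the clamp and sets it on DNA (chromosome 4, 39287456 to 39366375, minus strand). RFC1 was at 76.5 and 93.6 CPM in static, 66.5 and 58.0 in low flow and 58.7 and 59.9 in high flow. All flow libraries were below both static libraries. It fell by 26.9% under low flow (log2 fold change -0.45, SE 0.11, adjusted p = 0.0209) and fell by 30.3% under high flow (-0.52, SE 0.11, adjusted p = 0.00549).

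RFC2 to RFC5 are the small subunits of the same loader. RFC2 (chromosome 7, 74231499 to 74254458, minus strand) was at 66.9 and 66.5 CPM in static, 53.7 and 44.9 in low flow and 51.6 and 54.2 in high flow. It fell by 26.1% (log2 fold change -0.44, SE 0.10, adjusted p = 0.0197) and fell by 20.7% (-0.33, SE 0.10, adjusted p = 0.0399), again without overlap. RFC4 was at 51.4 and 51.07 CPM in static, 44.4 and 39.8 in low flow and 38.8 and 41.9 in high flow, and it fell by 21.3% under high flow (-0.35, SE 0.10, adjusted p = 0.0312) but did not pass under low flow (-0.28, adjusted p = 0.0999). RFC3 fell by 23.2% under high flow (-0.38, adjusted p = 0.0357), with -0.18 (adjusted p = 0.377) under low flow. RFC5 passed at neither rate, at -0.27 and -0.24.

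PCNA is the clamp that RFC loads and a common marker of dividing cells (chromosome 20, 5114953 to 5126626, minus strand). It was at 147.4 and 156 CPM in static, 129.8 and 112 in low flow and 112.7 and 127 in high flow, and per kilobase it was second only to MCM3, at 88.9 CPM per kb. Both flow pairs lay below the static pair and overlapped each other. PCNA fell by 21.0% under high flow (log2 fold change -0.34, SE 0.10, adjusted p = 0.0349), and the nearly equal -0.33 (SE 0.10, adjusted p = 0.0618) under low flow missed the threshold.

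Of the 7 polymerase and primase genes, PRIM1, POLD3, POLE2 and POLA2 fell under low flow and the first 3 of these under high flow. The median log2 fold change was -0.43 under low flow and -0.28 under high flow. Those that fell at both rates encode a primase subunit and smaller subunits of the polymerases delta and epsilon. POLE2 (polymerase epsilon subunit, chromosome 14, 49643555 to 49688422, minus strand) was at 17.97 and 22.9 CPM in static, 15.9 and 13.99 in low flow and 12.9 and 14.2 in high flow. No other of the 43 genes had a lower log2 fold change under high flow, where it fell by 33.9% (log2 fold change -0.60, SE 0.14, adjusted p = 0.00835), and it fell by 27.2% under low flow (-0.46, SE 0.14, adjusted p = 0.0492).

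PRIM1, the catalytic subunit of primase, makes the RNA primers of new strands (chromosome 12, 56731596 to 56752373, minus strand). It was at 35.0 and 37.8 CPM in static, 29.2 and 23.5 in low flow and 22.3 and 27.5 in high flow. It fell by 27.6% (log2 fold change -0.47, SE 0.13, adjusted p = 0.0378) and fell by 31.6% (-0.55, SE 0.13, adjusted p = 0.0104). Its exons share 14.9% of their bases with another gene on the same strand, AC117378.1, so reads may be split between them and the value is uncertain.

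POLD3 is an accessory subunit of polymerase delta, the main polymerase of the lagging strand (chromosome 11, 74493851 to 74669117, plus strand). It was at 36.0 and 46.1 CPM in static, 32.2 and 25.5 in low flow and 27.2 and 29.0 in high flow, with no overlap between static and flow. POLD3 fell by 29.9% (log2 fold change -0.51, SE 0.13, adjusted p = 0.0315) and fell by 31.6% (-0.55, SE 0.13, adjusted p = 0.0137). POLA2, a subunit of polymerase alpha, fell by 25.7% under low flow (-0.43, adjusted p = 0.0401) and did not pass under high flow (-0.18, adjusted p = 0.324), and 35.1% of its exon bases lie in a gene on the same strand, AP000944.2, which makes it uncertain.

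The large catalytic subunits did not pass. POLD1 of polymerase delta was at 65.6 and 61.6 CPM in static, 58.8 and 57.4 in low flow and 65.9 and 63.5 in high flow, with log2 fold changes of -0.13 and 0.02. POLE of polymerase epsilon was at 79.2 and 87.2, 80.4 and 72.3, and 84.2 and 85.6 CPM in the same order, with -0.12 and 0.03. High flow overlapped static in both genes. A gene on the same strand, AC020909.1, shares 8.6% of the exon bases of POLD1, which is uncertain to that extent. POLA1, the catalytic subunit of polymerase alpha, had -0.27 (adjusted p = 0.143) and -0.28 (adjusted p = 0.0926). These 3 catalytic genes and the smaller subunits above were not tested against each other.

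The genes that join Okazaki fragments and coat bare DNA had the medians nearest 0 among the roles. With edgeR and with DESeq2 0 of 5 passed at either rate. With 5 genes this is near edgeR's shares of 3.49% and 6.43% lower over all genes. At an unadjusted p under 0.05, 3 and 1 were lower, beside 2426 and 2963 of all 20676 genes. The median log2 fold changes were -0.21 and -0.04. LIG1, the ligase that seals the fragments (chromosome 19, 48115445 to 48170603, minus strand), was at 58.9 and 63.03 CPM in static, 52.3 and 47.8 in low flow and 63.4 and 61.5 in high flow. Its low flow pair was the lowest, and its high flow pair overlapped static, with log2 fold changes of -0.29 (adjusted p = 0.0861) and 0.03 (adjusted p = 0.853). FEN1, which trims the fragments, had -0.21 and -0.15. In RPA, the complex that coats the exposed strand, RPA2 had -0.21 and -0.24, RPA1 -0.08 and -0.04, and RPA3 0.09 (adjusted p = 0.745) and 0.05 (adjusted p = 0.837). RPA3, at 13.95 and 13.1 CPM in static, 13.98 and 14.7 in low flow and 12.8 and 15.2 in high flow, was the one gene of the 43 with a positive log2 fold change under low flow.

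Of 4 enzymes that make DNA precursors, TYMS and RRM2 fell under low flow and TYMS and RRM1 under high flow, with medians of -0.36 and -0.32. TYMS, thymidylate synthase, makes the thymidine nucleotide (chromosome 18, 657604 to 673578, plus strand). It was at 149.2 and 157.8 CPM in static, 118.9 and 99.5 in low flow and 113.5 and 123.9 in high flow. TYMS fell by 28.9% (log2 fold change -0.49, SE 0.10, adjusted p = 0.0113) and fell by 22.7% (-0.37, SE 0.10, adjusted p = 0.0246), and no flow library reached the static range. On the opposite strand ENOSF1 covers 39.1% of its exon bases, and the sources used here do not give the strand setting of the counting, so TYMS reads are uncertain to that extent.

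RRM1 and RRM2 are the subunits of ribonucleotide reductase, which turns ribonucleotides into deoxyribonucleotides. RRM2 (chromosome 2, 10120698 to 10131419, plus strand) was at 253.6 and 285 CPM in static, 227.9 and 181.7 in low flow and 205.9 and 230.8 in high flow. It fell by 23.97% under low flow (log2 fold change -0.40, SE 0.11, adjusted p = 0.0463), with -0.30 (adjusted p = 0.0859) under high flow. AC007240.1, annotated on the same strand with 0 counts, shares 20.2% of RRM2's exon bases, so RRM2 may lack reads and is uncertain. RRM1 was at 127.8 and 140.8 CPM in static, 114.3 and 101 in low flow and 102.6 and 109.4 in high flow. It fell by 21.1% under high flow (-0.34, SE 0.10, adjusted p = 0.03) and gave -0.32 (adjusted p = 0.0616) under low flow, so the 2 subunits had like values at both rates and passed at different ones.

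TK1 is the thymidine kinase of S phase cells (chromosome 17, 78174075 to 78187233, minus strand). It was at 57.5 and 42.3 CPM in static, 43.1 and 41.3 in low flow and 54.5 and 58.3 in high flow. The static libraries were far apart, with low flow near the lower of them and high flow near the higher. The log2 fold change was -0.24 (adjusted p = 0.256) for low flow and 0.18 (adjusted p = 0.343) for high flow. Whether TK1 passed as higher under high flow depended on static replicate 1.

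Of the last 4 genes, UHRF1 fell under low flow and SLBP under high flow, and the medians were -0.32 and -0.19. UHRF1 brings the maintenance methyltransferase to newly copied DNA (chromosome 19, 4903080 to 4962154, plus strand). It was at 125.1 and 118.8 CPM in static, 96.8 and 84.04 in low flow and 101.5 and 100.2 in high flow. UHRF1 fell by 25.9% under low flow (log2 fold change -0.43, SE 0.10, adjusted p = 0.016), and the -0.27 (adjusted p = 0.071) under high flow did not pass although no library overlapped.

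SLBP binds the stem-loop of replication-dependent histone mRNAs and is itself made in S phase (chromosome 4, 1692800 to 1712555, minus strand). It was at 77.02 and 76.7 CPM in static, 63.6 and 62.1 in low flow and 61.2 and 62.07 in high flow. The pairs were tight, with flow well below static. SLBP fell by 19.9% under high flow (log2 fold change -0.32, SE 0.09, adjusted p = 0.0294), and its -0.29 (SE 0.09, adjusted p = 0.0667) under low flow missed the threshold.

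E2F1 and E2F2 encode activating E2F factors. E2F1 (chromosome 20, 33675683 to 33686404, minus strand) was at 77.7 and 80.5 CPM in static, 75.6 and 60.2 in low flow and 74.5 and 72.5 in high flow. All flow libraries were below static, by little in low flow replicate 1, and neither log2 fold change passed (-0.22, adjusted p = 0.226; -0.11, adjusted p = 0.549). E2F2 had -0.36 (adjusted p = 0.102) and -0.09 (adjusted p = 0.672).

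**Figure D4:**
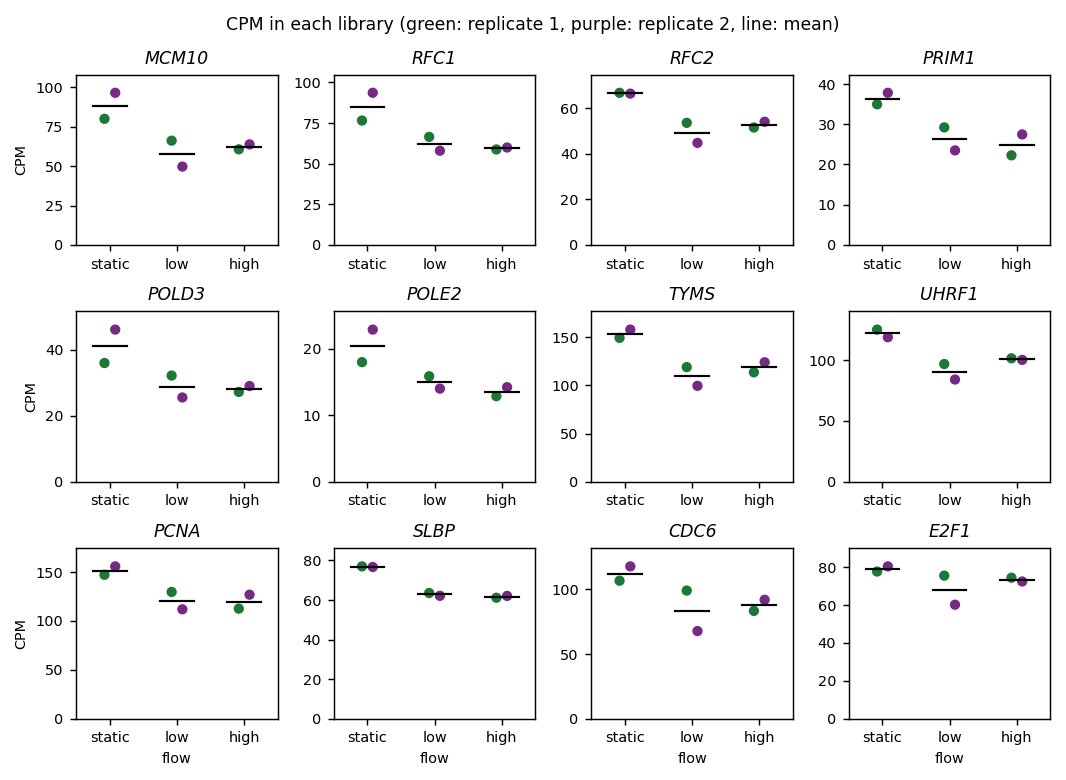
CPM, from 0, in each library of 12 replication genes under static, low and high flow, with green points for replicate 1, purple points for replicate 2 and a line at the mean of the 2 libraries. MCM10, RFC1, TYMS and SLBP show flow libraries below both static libraries, and the low flow replicates of CDC6 (99.2 and 67.8 CPM) stand apart from each other.

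Set side by side, the 20 genes with an E2F motif had median log2 fold changes of -0.30 under low flow and -0.20 under high flow, and 5 and 4 of them fell. The 17 genes without a match had -0.35 and -0.33, and 7 and 8 fell, beside 3.49% and 6.43% lower over all genes. The difference between these sets was not tested. The genes with the motif ranged from -0.49 (TYMS) to -0.12 (POLE) under low flow, and those without it from -0.61 (MCM10) to -0.08 (RPA1).

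Between the flow rates, 0 of 43 genes passed in either direction with edgeR, beside 0.0919% of all genes lower and 0.242% higher under high flow than low flow. At an unadjusted p under 0.05 there were 0 lower and 5 higher, TK1, LIG1, CDT1, E2F2 and POLA2. Of all 20676 genes, 939 were lower and 1051 higher at that threshold. DESeq2 called 0 of the 43. The log2 fold change of high against low flow was positive in 27 and negative in 16, with a median of 0.07 and a range of -0.20 to 0.42. High flow lay wholly above low flow in 13 of 43, against 21.2% of all genes, and wholly below it in 1 of 43 (SLBP), against 21.5% of all genes. Leaving out a low flow library moved the median, to -0.03 without replicate 2 and to 0.18 without replicate 1.

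TK1 had the largest difference, a log2 fold change of 0.42 with a 95% interval of 0.17 to 0.67 (adjusted p = 0.242). Next came LIG1 at 0.32 (0.12 to 0.52, adjusted p = 0.263) and CDT1 at 0.26 (0.04 to 0.49, adjusted p = 0.439). At the other end RFC3 was at -0.20 (-0.44 to 0.03, adjusted p = 0.586). For the genes that fell at both rates the intervals admit differences of either sign. The group with the lowest mean was low flow for 27 genes, high flow for 15 and static for 1.

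The order of the genes along this difference followed their base composition. Across the 43 genes the log2 fold change of high against low flow correlated with the GC content of the longest transcript (Pearson 0.76, Spearman 0.75), and across all genes with an annotation the Spearman value was 0.45 (20000 genes). For high flow against static the Spearman values were 0.70 over the 43 and 0.31 over all, and for low flow against static, within 1 lane, 0.31 and 0.06. These are descriptions across genes that share libraries, and genes are not independent replicates. TK1 and CDT1 have GC contents of 62.8% and 64.9%, and RFC1 and PRIM1 of 41.7% and 40.7%. The GC dependence goes with the lane as well as with the flow rate, and its part in the high flow values was not tested beyond an offset for length and GC in the fit.

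With that offset the Spearman values over the 43 genes were 0.12, 0.10 and 0.10. The log2 fold change was then negative in 42 of 43 for low flow against static (median -0.31, 18 lower) and in 40 of 43 for high flow against static (median -0.26, 12 lower). In low flow all 13 genes kept their call, and MCM2, MCM5, ORC1, LIG1 and RRM1 were added. In high flow PCNA, RFC3, RFC4 and RRM1 lost it, leaving 9, and MCM2, MCM5 and UHRF1 were added. The share of all genes called with the offset is not given here. With the offset CDT1 under high flow was at -0.23 (adjusted p = 0.199) in place of 0.01, POLD1 at -0.25 (adjusted p = 0.071) in place of 0.02, and TK1 at 0.03 (adjusted p = 0.909) in place of 0.18. Between the flow rates 0 passed with the offset as without it, and the log2 fold change was positive in 34 and negative in 9, with a median of 0.05. The offset turned the sign of 13 genes there and of 4 against static under high flow (CDT1, POLD1, POLE and LIG1).

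**Figure D5:**
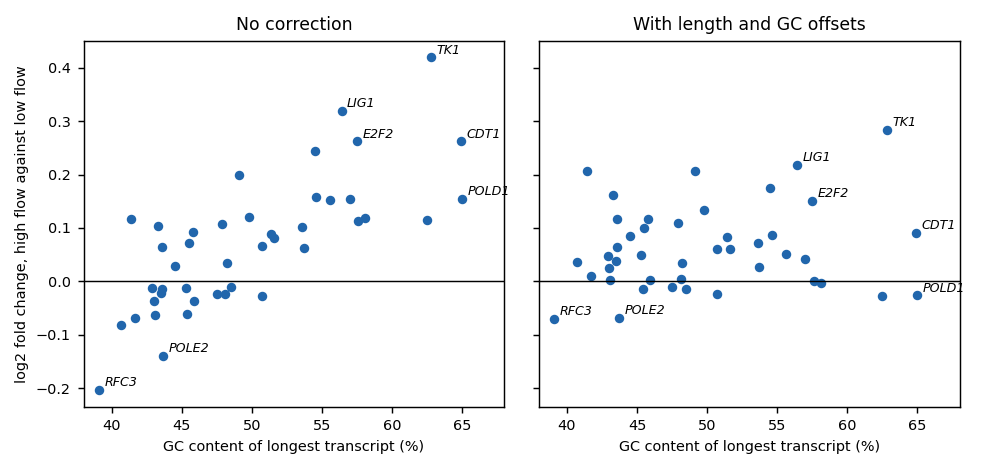
Log2 fold change of high against low flow for the 43 replication genes (y axis) against the GC content of the longest transcript in percent (x axis), without correction (left) and with offsets for length and GC (right). The points rise with GC content on the left (Spearman 0.75) and show little trend on the right (0.10).

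Neighbouring genes of the same process, from lists that were set with earlier results of these data known, were read from the same fit, with no test of a list. Over all genes, as above, 3.49% were lower and 3.25% higher under low flow, and 6.43% and 7.49% under high flow. Of 28 further origin and fork genes, 11 were lower and 0 higher under low flow, and 9 lower and 1 higher under high flow, with medians of -0.32 and -0.24. At an unadjusted p under 0.05, 3 were higher under low flow, and DESeq2 called 1 of them. DBF4, the activating partner of the kinase CDC7 that fires origins, fell from 30.4 to 18 CPM under low flow (log2 fold change -0.76, SE 0.12, adjusted p = 0.00246) and to 18.04 CPM under high flow (-0.75, SE 0.12, adjusted p = 0.001). Both log2 fold changes were below those of any of the 43. CDC7 itself fell too (-0.50, adjusted p = 0.0227; -0.53, adjusted p = 0.00976). ATAD5, which unloads PCNA, fell under low flow by 0.62 on the log2 scale and under high flow by 0.53. TIPIN, of the fork protection complex, and ORC5 fell by 0.61 and 0.63 under high flow. CHTF8 was the gene that rose under high flow (0.34, adjusted p = 0.0344).

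Among 12 genes of chromatin assembly and DNA methylation at the fork, 5 were lower under low flow and 4 under high flow, with medians of -0.40 and -0.27. None was higher by edgeR, by DESeq2 or at an unadjusted p under 0.05. They included the histone chaperone NASP, from 334.4 to 241.3 CPM under low flow (log2 fold change -0.47, adjusted p = 0.0145) and 236.2 CPM under high flow (-0.50, adjusted p = 0.00545). HELLS, a chromatin remodeller, fell at both rates (-0.48 and -0.38). DNMT1, the maintenance methyltransferase that UHRF1 recruits, fell under low flow (-0.42, adjusted p = 0.0249).

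Other enzymes of nucleotide supply differed little. Of 16 genes, 0 were lower under low flow, where 5 were lower at an unadjusted p under 0.05 and 1 by DESeq2, and 2 were lower under high flow: GART (log2 fold change -0.38, adjusted p = 0.0186) and PAICS (-0.30, adjusted p = 0.0476), both of purine synthesis. TK2, the mitochondrial thymidine kinase, rose at both rates, from 102.5 CPM to 133.3 (0.38, adjusted p = 0.0284) and 129.6 (0.34, adjusted p = 0.0294). The medians over the 16 were -0.09 and -0.05, and the 1 of 16 higher at each rate is not far from the share over all genes.

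Of 25 genes of the E2F and RB families and the G1/S cyclins and kinases, 3 fell and 1 rose under low flow, and 7 fell and 1 rose under high flow, with medians of -0.14 and -0.17. The 1 of 25 higher is near the share over all genes under low flow and below it under high flow. CCNA2, cyclin A2 of S phase, fell at both rates (log2 fold change -0.51, adjusted p = 0.0142; -0.45, adjusted p = 0.0152), as did LIN9, a subunit of the DREAM and MuvB complexes (-0.48 and -0.58). CCNE1 fell under low flow (-0.54, adjusted p = 0.0361). RBL2, the RB relative p130 of resting cells, rose under low flow from 55.6 to 77.8 CPM (0.49, adjusted p = 0.0105). The cyclin-dependent kinase inhibitor CDKN1A rose under high flow from 112.7 to 174 CPM (0.63, SE 0.10, adjusted p = 0.00102). CDKN1B, the related inhibitor p27, fell under high flow from 34.04 to 23.3 CPM (-0.55, adjusted p = 0.00387) and was also lower than under low flow, at 37.7 CPM (-0.69, adjusted p = 0.00427), the one gene of these neighbouring lists that passed edgeR's test between the flow rates. For that comparison DESeq2 called 1 lower and 1 higher gene in this list and 2 higher genes among those of G2 and mitosis.

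Of 31 genes of G2 and mitosis, 24 fell under low flow and 14 under high flow, with medians of -0.44 and -0.33. None was higher than in static by edgeR, by DESeq2 or at an unadjusted p under 0.05. Their summed level was 3552 and 3799 CPM in static, 2870 and 2532 in low flow and 2927 and 3158 in high flow, with the same library, low flow replicate 2, at the bottom as for the replication genes. UBE2C, the ubiquitin-conjugating enzyme of mitotic exit, fell from 115.8 to 70.1 CPM under low flow (log2 fold change -0.72, adjusted p = 0.00204), and PTTG1, securin, fell at both rates (-0.64 and -0.58). Whether the replication genes and the mitotic genes differ in how far they fell was not tested.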

How the data were processed

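The authors deposited raw counts per gene, 60591 rows named by gene symbol with 1 column per library, and the labels tie each column name to a sample. RNA was taken up in TRIzol and libraries came from a KAPA stranded mRNA kit, per the labels' protocols. STAR, featureCounts and hg38 are named, per the submitters' processing notes; their settings and the annotation are not given in the sources used here.

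Counts were fitted here in R 4.3.3 with edgeR 4.0.16 and its quasi-likelihood test (TMM normalization, minimum count of 10, robust estimates, all 6 libraries in 1 fit, 3 residual degrees of freedom, 20676 genes). All p-values are two-sided, with Benjamini-Hochberg adjustment over all genes. CPM were computed from the counts with TMM factors, SE from the test statistic. The fit was tested on simulated counts. Library totals ran from 17822642 to 53279537, and the 43 genes had 253 to 18174 counts per library. Replicates were not copies: a chi-square test of their counts gave, per degree of freedom, 17.5 in static, 33.4 in low flow and 13.4 in high flow. Positions, lengths and GC came from GENCODE 29, which matched 56490 symbols and all 43 genes.

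Alternatives were RLE normalization, no filter, DESeq2 1.42.0, only the 4 libraries compared, the replicate number as a block, offsets for length and GC (splines with 5 degrees of freedom), both together, and each library left out.

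The members, the neighbouring lists and the tests were chosen with earlier results of these data known. By rule, full values are given for up to 3 genes of lowest p per role among those that passed, and for MCM2, PCNA, CDC6, CDT1, E2F1 and SLBP; other members appear with single values, and up to 4 genes of each other list are named per comparison, by p among those that passed. MCM6, POLD1, POLE, LIG1, RPA3, TK1 and CHTF8 fall outside this rule and were chosen for fuller description with their values in view.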

Additional observations from a re-analysis of the deposited data

How the results depend on the processing

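With 2 libraries a group, which genes passed rested on single libraries, while the median log2 fold change of the 43 genes stayed negative against static with each library left out. The count lower under low flow, 13, was 5 with the replicate block, 9 with block and offsets, 3 with only the 4 libraries compared and 0 to 22 with a library left out; it was 13 with RLE, 15 without the filter, 19 with DESeq2 and 18 with offsets. The count lower under high flow, 13, was 10 with the replicate block, 6 with block and offsets and 19 with only the 4 libraries compared. Both counts also moved with a library left out. The share of all genes called under each setting is not given here. These counts therefore do not show whether the replication genes moved apart from all genes. Whether TK1 passed as higher under high flow than static depended on the library left out. Without the filter 1 gene, also TK1, passed as higher under high flow than low flow. Same-numbered libraries of different groups had deviations that correlated at -0.14, -0.05 and 0.14. With 2 libraries a group these values cannot settle whether the numbers pair the libraries. The cause of these changes was not tested.

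With the offsets the sign turned in 13 of 43 genes for high against low flow and in 4 for high flow against static. For low flow against static it turned in 0. Values follow for genes among the 6 named whatever their p. Of these, CDC6 kept its sign with the offsets and is given for the fits with a library left out. RFC1, PRIM1, POLD3 and RRM1 also turned for high against low flow, and their values are not given. For high flow against static, CDT1 was at -0.2337 with offsets, at -0.2333 with block and offsets, and at -0.0697 to 0.0823 with a library left out. For high against low flow, E2F1 was at -0.0284 with offsets, -0.0291 with both and -0.0390 to 0.2876 with a library left out. MCM2 was at -0.0029 with offsets and -0.0036 with both. PCNA was at 0.0492 and 0.0479, and at -0.1127 to 0.0986 with a library left out, and CDC6 at -0.1752 to 0.3727 with a library left out. Fold changes near those reported lie at the limit of what 2 libraries a group detect, and genes that did not pass are not shown to be unchanged.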
